A study of Mus musculus with 2 samples.

Results

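Of the 31532 accessible regions in the main peak list of mouse haematopoietic stem cells, 2016 lay in gene deserts, as defined here by position alone. A region was kept when it was autosomal, its summit fell outside every protein-coding gene, and that summit was over 100 kb from the start site (TSS) of every protein-coding transcript in GENCODE M21 on mm10. No measured value entered the choice. The 2016 regions were 6.39% of the list, and a further 36 regions on the sex chromosomes met the distance rule and were left out. Comparison classes on the autosomes were 8114 intergenic regions at 1 to 100 kb from a TSS, 9861 regions inside protein-coding genes over 1 kb from a TSS, and 10869 promoter regions within 1 kb of a TSS.

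Gene deserts are long stretches of a chromosome with no protein-coding gene. Many flank genes for transcription factors and signalling proteins, and enhancers within them can act on a gene over a long distance through chromatin looping, often between sites bound by CTCF, the DNA-binding protein that anchors loops. In blood stem and progenitor cells, distal enhancers are commonly bound by RUNX, ETS (ERG, FLI1 and PU.1), GATA and TAL1 proteins. A known blood enhancer cluster of the proto-oncogene Myc lies far downstream of that gene, in the desert beside it.

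The assay was ATAC-seq: a transposase cuts open DNA and tags the cut ends for sequencing. The series holds 1 group of 2 libraries, both made from primary haematopoietic stem cells. The mice were C57BL/6J adults, 5 to 6 weeks of age, and the labels name no genetic change or agent. The labels give sex as not collected, the same donor identifier for both libraries, no markers used to sort the cells, and a starting quantity of 50000 cells for replicate 2 only. Whether the libraries came from separate animals is therefore unknown, and differences between them may be technical. The files hold peaks and not reads, so read depth is unknown. The signal given with a peak is the authors' own number. Its control and scaling are not stated, and it was used to rank and describe regions within a list. In a pool of cells, a site open in few cells and a site weakly open in many cannot be told apart. As a check of the label, the stem and progenitor genes Kit, Hlf, Cd34 and Meis1 had a region within 1 kb of a TSS in the main list. Ly6a, Procr, Slamf1, Mecom and Fgd5 had none. Of the markers of mature blood cells looked at, Itgam and Gp9 had one, and Cd79a, Cd3e, Cd4, Cd8a, Ly6g and Klf1 did not.

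The regions below show what an accessible site in a gene desert looks like in sequence. Each is the member of highest signal, without a flag for repeated sequence, that matched a given binding motif of a blood or loop factor, and each is read from the mm10 plus strand over 201 bp centred on the summit. Capitals mark the motif match. The PU.1 form (GAGGAAGT) stands in chr5:40953006-40953206 on the plus strand, in a region 755 kb from the TSS of Rab28, with signal 21.6 in replicate 1 and 10.5 in replicate 2.
chr5:40953006-40953206: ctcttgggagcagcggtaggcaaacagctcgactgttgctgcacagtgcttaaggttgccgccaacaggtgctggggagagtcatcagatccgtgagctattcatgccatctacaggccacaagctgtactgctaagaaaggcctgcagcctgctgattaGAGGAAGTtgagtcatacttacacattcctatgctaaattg
The RUNX site (TGTGGTT) stands on the plus strand in chr4:67424159-67424359, 596.6 kb from Tlr4, with signal 17.4 in replicate 1 and 13.6 in replicate 2.
chr4:67424159-67424359: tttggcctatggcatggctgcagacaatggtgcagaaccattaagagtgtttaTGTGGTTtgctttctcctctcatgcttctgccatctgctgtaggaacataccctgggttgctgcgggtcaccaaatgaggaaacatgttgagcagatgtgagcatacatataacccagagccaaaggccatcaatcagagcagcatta
The ETS form preferred by ERG (CAGGAAGT) stands on the minus strand in chr13:4771555-4771755, 162.5 kb from Akr1e1, with signal 19.3 in replicate 1 and 14.5 in replicate 2.
chr13:4771555-4771755: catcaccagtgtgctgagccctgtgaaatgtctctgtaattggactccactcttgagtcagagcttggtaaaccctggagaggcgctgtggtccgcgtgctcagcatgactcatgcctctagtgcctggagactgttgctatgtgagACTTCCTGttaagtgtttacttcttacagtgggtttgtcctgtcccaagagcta
The composite GATA and E-box site, the form bound by GATA and TAL1 proteins together, stands on the plus strand in chr1:137560445-137560645, 600.1 kb from Nr5a2, with signal 13.5 in replicate 1 and 13.9 in replicate 2.
chr1:137560445-137560645: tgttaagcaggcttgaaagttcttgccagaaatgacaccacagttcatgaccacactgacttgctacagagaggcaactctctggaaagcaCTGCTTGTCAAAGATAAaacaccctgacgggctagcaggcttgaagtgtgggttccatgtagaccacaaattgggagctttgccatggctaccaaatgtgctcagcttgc
The CTCF core stands on the minus strand in chr2:101472848-101473048, 103.2 kb from B230118H07Rik, with signal 19.8 in replicate 1 and 7.85 in replicate 2.
chr2:101472848-101473048: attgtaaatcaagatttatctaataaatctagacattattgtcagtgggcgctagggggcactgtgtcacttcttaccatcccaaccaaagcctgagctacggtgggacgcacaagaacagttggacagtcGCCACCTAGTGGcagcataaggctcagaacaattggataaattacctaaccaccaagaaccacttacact

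Accessible regions were sparse in gene deserts and became sparser with distance. Sequence that met the rule made up 736.9 Mb, or 30.8% of called autosomal bases, and held 6.53% of autosomal regions, a density of 2.74 regions per Mb. The density was 12.4 per Mb in intergenic sequence at 1 to 100 kb, 10.4 inside genes, 177 in promoters and 12.9 over the autosomes. Within the deserts it fell from 5.33 regions per Mb at 100 to 200 kb (1113 regions) to 3.40 at 200 to 300 kb (446 regions). It was 1.76 per Mb at 300 to 500 kb (283 regions), 0.909 at 500 to 1000 kb (146 regions) and 0.369 beyond 1000 kb (28 regions). Signal did not fall with distance in the same way: its median was 8.58 in each of the 2 nearest bins, 9.29 and 9.07 in the next 2, and 9.69 beyond 1000 kb. Across the 2016 regions, Spearman's rho between distance and signal was 0.0793, a description over regions that share both libraries.

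**Figure D1:**
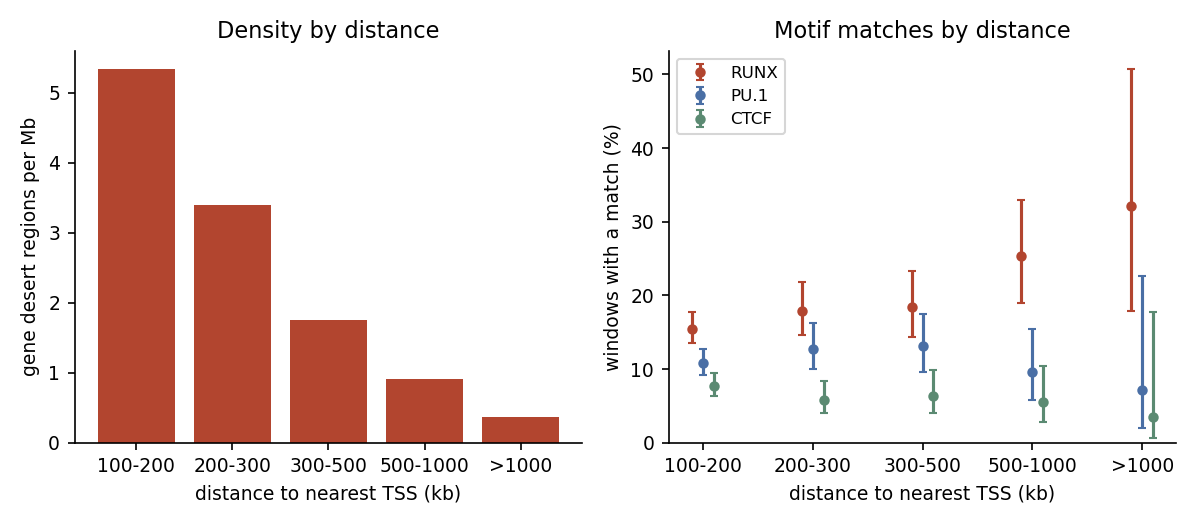
Left, accessible regions per Mb of eligible gene desert sequence, by distance from the nearest protein-coding TSS. Right, share of 201 bp summit windows with a RUNX, PU.1 or CTCF match in the same bins, with 95% Wilson intervals. Density falls from 5.33 to 0.369 per Mb, while the RUNX share goes from 15.5% to 32.1% (9 of 28 regions). PU.1 and CTCF shares show no such rise.

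Gene desert regions were found in each replicate about as often as other distal regions and less often than the whole list. In the IDR thresholded list of replicate 1 (peaks kept at an irreproducible discovery rate threshold, called on that library alone), 1619 of the 2016 regions appeared, or 80.3% (95% Wilson interval 78.5 to 82.0%), against 84.6% of all regions. Replicate 2's list held 1140 of them, or 56.5% (54.4 to 58.7%), against 65.3% of all regions. Both lists held 51.7% of the desert regions and neither held 14.8%, against 61.0% and 11.0% of all regions. Over all regions, 23.7% were found by replicate 1 alone and 4.36% by replicate 2 alone, so the imbalance between libraries covered the whole list. Intergenic regions at 1 to 100 kb gave 80% and 55.9%, within the intervals of the desert regions. Promoter regions gave 93.6% and 82.7%, above those intervals. In the permissive pseudoreplicated lists, 99.9% of desert regions were found in replicate 1 and 97.7% in replicate 2, against 99.8% and 98.2% of all regions. The main list was made from both libraries, so this near-complete presence is no separate result. Regions are not replicates, and these intervals cover counting error only.

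**Figure D2:**
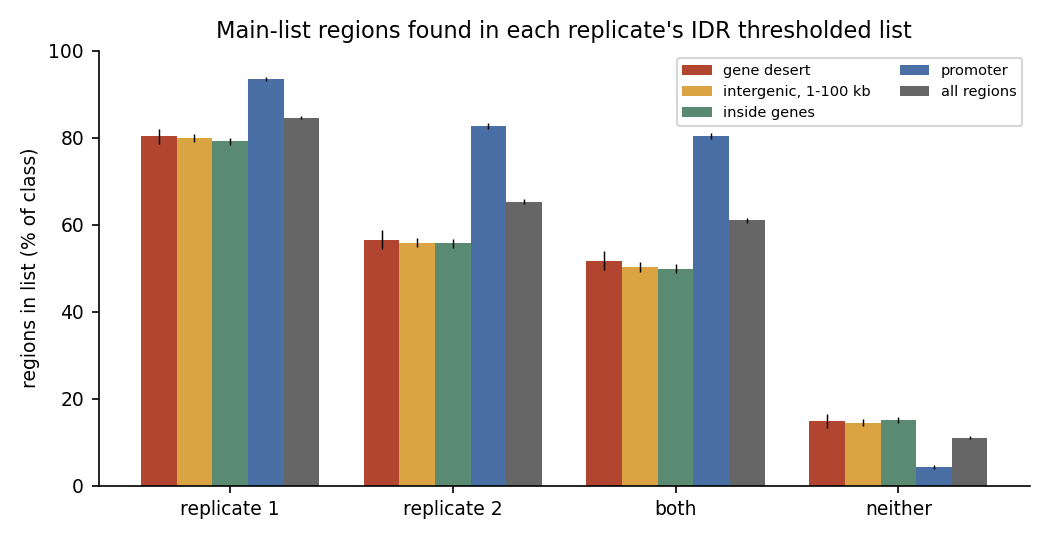
Share of main-list regions found in each replicate's own IDR thresholded list, in both and in neither, for 5 classes of region, with 95% Wilson intervals. Gene desert regions (80.3% and 56.5%) sit beside the other distal classes and below promoters (93.6% and 82.7%).

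The rank correlation of signal between replicates was close to that of nearer intergenic regions and below that of all regions. Among the 1967 desert regions with a signal in both pseudoreplicated lists, Spearman's rho between replicates was 0.622, against 0.63 in intergenic regions at 1 to 100 kb and 0.713 over all regions. These regions come from a list made from both libraries, so the values are no separate measure of reproducibility. The median signal of the desert regions in the main list was 8.69, with quartiles at 7.26 and 10.6. It was 8.01 in intergenic regions at 1 to 100 kb, 7.76 inside genes, 9.31 in promoters and 8.33 overall. Desert regions had a median width of 525 bp, against 507 bp in the nearer intergenic class and 836 bp in promoters.

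The 3 highest signals in gene deserts stood at regions that match mitochondrial DNA, which the nuclear genome carries in copies. Of the 10 regions of highest signal in the whole list, 4 were gene desert regions, and all 4 were flagged for matching other sequence. The region at chr6:9889878-9890221, 940.4 kb from Nxph1, had the highest signal of all members, 30.2, with 32.9 in replicate 1 and 23.5 in replicate 2. It matched the mitochondrial chromosome at 95.5% identity over 310 bp. Regions at chr5:60042656-60043140 (signal 29.7) and chr12:97061374-97061850 (signal 27.0) matched it at 97.9% and 99.7% identity. Reads from mitochondrial DNA can align to such copies, and how much of these signals they made was not tested. The window at the summit of the chromosome 6 region is shown in full because every one of its bases lies in the mitochondrial match, as its capitals mark.
chr6:9889940-9890140: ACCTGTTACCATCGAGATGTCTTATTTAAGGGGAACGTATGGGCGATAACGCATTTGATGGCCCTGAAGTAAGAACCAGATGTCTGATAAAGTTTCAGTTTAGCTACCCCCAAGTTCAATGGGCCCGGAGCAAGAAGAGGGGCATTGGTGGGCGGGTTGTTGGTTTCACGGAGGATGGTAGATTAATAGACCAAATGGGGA

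In all, 8 of 2016 desert regions matched mitochondrial DNA, or 0.397% (0.201 to 0.781%), against 0.0603% of all regions (19 regions). The other 5 of the 8 stood side by side in 2.71 kb at chr4:80002530-80005239, 829.1 kb from Tyrp1 (a melanocyte pigment enzyme), with signals between 3.97 and 9.56, and matched successive stretches of the mitochondrial chromosome, with starts from 12690 to 14874, at 92.9 to 96.5% identity. Replicate 1 found all 5 and replicate 2 found 4. They count as 5 regions here but adjoin one another. A further flag marked a near-identical copy elsewhere in the nuclear genome (at least 90% identity over 50% of the region). It was carried by 86 desert regions, or 4.27% (3.47 to 5.24%), against 2.56% of all regions. The interval of nearer intergenic regions (3.12 to 3.92%) overlapped that of the deserts, and regions inside genes had 1.41%. The T cell receptor alpha and delta locus, described below, held 21 of the 86. Of the desert regions with such a copy and no mitochondrial match, the strongest was chr8:20122114-20122857. It had 6 copies and signal 25.8 (26.9 in replicate 1 and 13.6 in replicate 2). Together 90 desert regions, or 4.46%, carried a flag, and 1926 did not. Flagged regions had a median signal of 9.13 and unflagged regions 8.66. Both replicates' lists held 53.3% of the flagged regions, against 51.7% of all desert regions.

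**Figure D3:**
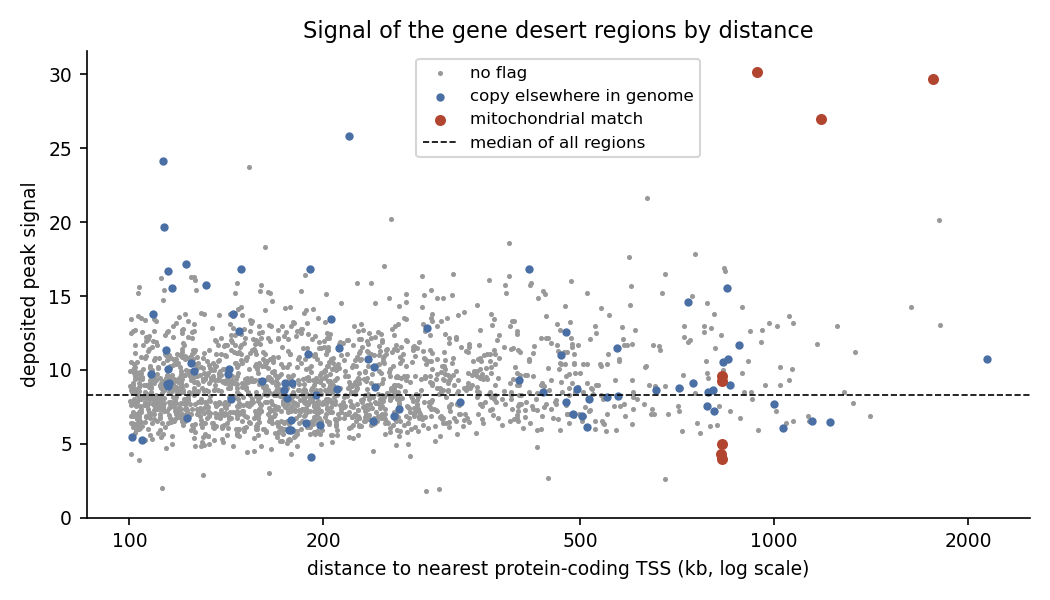
Deposited signal of each of the 2016 gene desert regions against its distance from the nearest protein-coding TSS (log scale), coloured by flag, with the median signal of all regions as a dashed line. The 3 highest points (30.2, 29.7 and 27.0) match mitochondrial DNA, and the 5 mitochondrial matches from 829.1 to 831.2 kb are the stretch on chromosome 4.

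Among unflagged regions, the highest signal was 23.7, at chr12:17881342-17882199, 153.6 kb from Hpcal1, which encodes a neuronal calcium sensor. Its signal was 21.1 in replicate 1 and 20.5 in replicate 2. Its window was rich in G and C (66.7%) and CpG (16 sites in 201 bp). The start of Gm49326, a gene not annotated as protein-coding, lay 0.399 kb away. The next was chr4:28176778-28177105 (signal 21.6), 636.2 kb from Epha7, an ephrin receptor gene, with 19.4 in replicate 1 and 18.3 in replicate 2. A region on chromosome 18 at 49500798-49501309 (signal 20.2) lay 254.6 kb from Dtwd2. The region at chr1:101902036-101902714, with the same signal, lay 1805 kb from Cntnap5b. The other 6 of the 10 highest had signals from 16.9 to 18.6 and lay 162.5 to 837.8 kb from a TSS, nearest to Rpl36a-ps1, Akr1e1, Rab28, Tlr4, Rps29 and Vwc2. Both replicates' lists held all 10, against 51.7% of desert regions and 61.0% of all regions. These 10 were chosen by a signal made from both libraries, so their presence in both lists is no separate result. Replicate 1's signals ran from 15.9 to 22.3 and replicate 2's from 10.2 to 20.5. The replicates' values are not compared here, since over all regions the median signal was 9.23 in replicate 1's pseudoreplicated list and 6.35 in replicate 2's. Tlr4, the lipopolysaccharide receptor gene of myeloid cells, was the nearest gene to the RUNX region printed above.

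RUNX, ETS and GATA motifs were more frequent in gene desert windows than over the whole list, whose promoter regions hold few of them, and for some of these motifs other distal classes had similar shares. TGTGGTT, the RUNX site, was in 351 windows, or 17.4% (15.8 to 19.1%), against 10.1% of all regions, 12.5% of intergenic regions at 1 to 100 kb (11.8 to 13.2%), 14.2% of regions inside genes (13.5 to 14.9%) and 3.28% of promoters. The interval of the desert class overlapped neither of the other distal classes. In windows of the same length centred 500 bp to either side of the desert summits, the share was 4.46% and 5.16%. GAGGAAGT, the PU.1 form, was in 11.5% (10.1 to 12.9%) of desert windows, against 7.85% of all regions, 9.32% of nearer intergenic regions and 0.992% and 1.04% of the flanks. Regions inside genes had 11.1% (10.5 to 11.7%), within the desert interval. CAGGAAGT, the ERG form, was in 9.72% (8.50 to 11.1%) against 6.30%, with 7.20% in nearer intergenic regions, 8.18% inside genes and 1.69% and 1.74% in the flanks. The GATA site AGATAAG was in 4.86% (4.01 to 5.89%) against 2.73%, with 3.36% in nearer intergenic regions, 3.74% inside genes and 2.53% and 3.03% in the flanks. The GATA and E-box composite was in 2.03% (1.5 to 2.75%) against 1.24%. Its intervals in nearer intergenic regions (1.48%, 1.24 to 1.77%) and inside genes (1.76%, 1.52 to 2.04%) overlapped that of the deserts. TGATTTAT, a form bound by HOXA9 with MEIS1, was in 1.79% (1.29 to 2.46%) against 0.656%, but also in 0.992% and 1.19% (0.801 to 1.77%) of the flanks, whose intervals overlapped that of the summits. The ETS and IRF composite GGAAGTGAA was in 1.98% against 1.13%. At least 1 of the RUNX, ERG, PU.1 and GATA sites was in 38.0% of desert windows and 23.8% of all windows, and 2 or more in 5.31% and 2.97%. Desert windows had a lower content of G and C (median 49.3%) than all windows (54.7%), and its part in these shares was not tested. All motifs were searched on both strands, and a match is a description of letters.

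Sites of other factors, blood factors among them, were mixed. TGANTCA (AP-1) was in 12% of desert windows and 7.64% of all, with 9.96% in nearer intergenic regions and 9.72% inside genes. The longer NF-E2 form GCTGAGTCA, which holds an AP-1 site, was in 1.44% of desert windows and 1.23% of all. Nearer intergenic regions had 1.71% of that form and regions inside genes 1.84%. The C/EBP letters TTGCNNAA were in 10.6% against 7.75%, and in 9.82% and 11.3% of the flanks. The E-boxes CAGATG and CAGCTG were in 18.8% and 17.9% of desert windows, against 14.0% and 15.6% of all windows. Other distal classes had similar shares: 17.6% and 17.2% in nearer intergenic regions, and 17.8% and 18.7% inside genes. Promoters had 7.09% and 11.2%. For CAGATG the flanks had 14.5% and 14.0%, and for CAGCTG 8.83% and 8.48%. GAAANTGAA (IRF) was in 3.03% against 1.76%, with 2.27% in nearer intergenic regions, 1.91% inside genes and 2.28% and 2.08% in the flanks. ATGCAAAT (OCT) was in 1.34% against 0.929%, and TGTTTAC (FOXA) in 2.38% against 2.06%. The flanks had more of both, 2.08% and 1.59% for OCT and 2.73% and 3.47% for FOXA. Shares of CAACNGCC (MYB) were 1.88% and 2.79%, of CCACACCC (KLF) 2.08% and 2.77%, and of AATCACNGC (GFI1) 0.744% and 0.612%. Motifs that are common in promoters were rare in the deserts, as in the other distal classes. GGGGCGGGG (SP) was in 1.29% against 7.04% of all and 16.5% of promoters, with 2.28% in nearer intergenic regions and 1.62% inside genes. CCAATCA (NF-Y) was in 2.78% against 5.63%, AAGATGGCG (YY1) in 0.198% against 1.09%, and ACCGGAAGT, the ETS form typical of promoters, in 0.298% against 0.901%. Sites of HNF4 (a factor of liver and gut), MEF2, SOX and REST were at low shares. They were 0.298% against 0.162% for CAAAGTCCA (HNF4) and 0.744% against 0.304% for TAAAAATAG (MEF2). For MEF2 the flanks had 0.992% and 0.546%. Shares were 0.446% against 0.431% for CCATTGTT (SOX) and 0.0992% against 0.197% for the REST element.

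**Figure D4:**
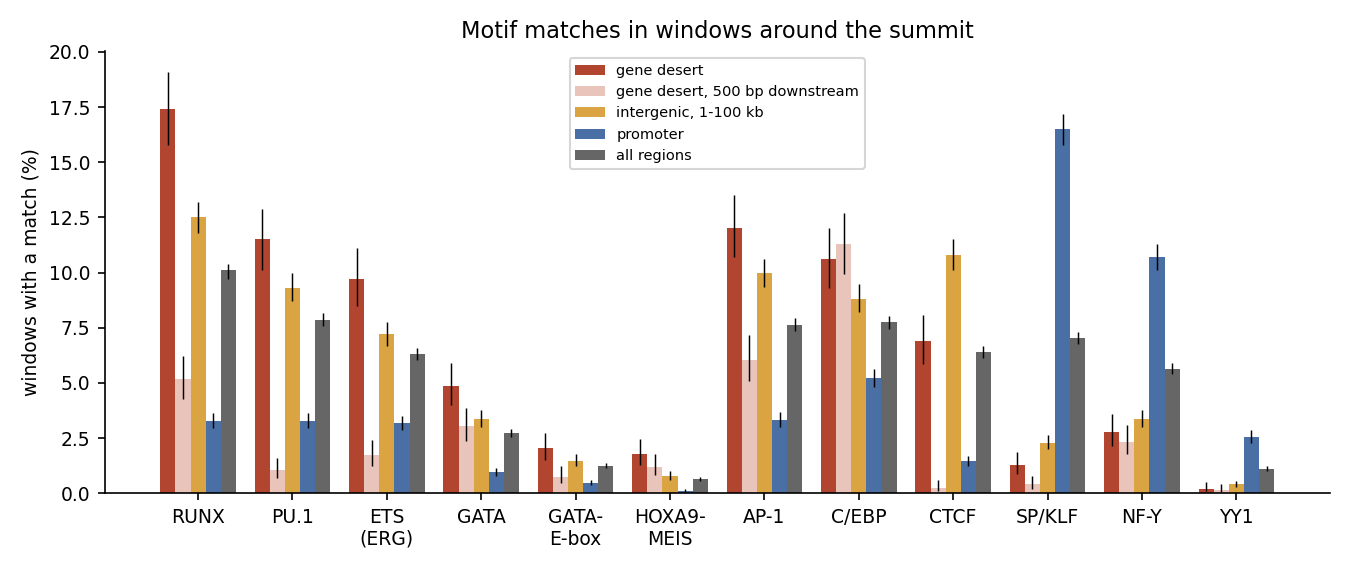
Share of 201 bp windows with a match to 12 of the 27 motifs searched, in gene desert summits, their flanks 500 bp downstream, 2 comparison classes and all regions, with 95% Wilson intervals. RUNX, PU.1, ERG and GATA forms are higher in desert windows than in all windows, and SP, NF-Y and YY1 forms are higher in promoters.

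RUNX matches were more frequent the farther a region lay from genes. The share was 15.5% (13.5 to 17.8%) at 100 to 200 kb, 17.9% at 200 to 300 kb, 18.4% at 300 to 500 kb, 25.3% (19.0 to 33.0%) at 500 to 1000 kb and 32.1% (17.9 to 50.7%, 9 of 28 regions) beyond that. The interval of the 500 to 1000 kb bin lay above that of the nearest bin, and the farthest bin's interval was too wide to set it apart from the 500 to 1000 kb bin. Without flagged regions the shares were 15.5, 17.7, 19.0, 26.4 and 28.6%. In the upstream flanks they stayed between 3.57 and 4.95% and in the downstream flanks between 3.57 and 6.71%. The median content of G and C fell from 50.2% in the nearest bin to 45.3% at 500 to 1000 kb, and its part in the RUNX shares was not tested. The other motifs split by distance showed no such steady rise. From the nearest to the farthest bin, PU.1 shares were 10.9, 12.8, 13.1, 9.59 and 7.14%. ERG shares were 9.07, 11, 11.7, 8.9 and 0%, and CTCF shares 7.73, 5.83, 6.36, 5.48 and 3.57%. GATA shares were 4.49, 5.61, 5.3, 2.74 and 14.3% (4 of 28 regions in the last). Shares of the HOXA9 and MEIS1 form were 1.62, 1.35, 2.12, 4.11 and 0%. RUNX matches lay a median of 33 bp from the summit, PU.1 matches 28.5 bp and GATA matches 47 bp.

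CTCF matches in the deserts were less frequent than in nearer intergenic sequence and near the share of the whole list, whose promoter regions hold few of them. The CTCF core was in 139 desert windows, or 6.89% (5.87 to 8.08%), against 6.38% of all regions, 10.8% (10.1 to 11.5%) of intergenic regions at 1 to 100 kb and 1.44% of promoters. Regions inside genes had 8.29% (7.76 to 8.85%), an interval that overlapped that of the deserts. In desert windows the core lay a median of 13.5 bp from the summit, and 95.7% of the matched windows had it within 50 bp. In the flanks of the desert summits the share was 0.0496% and 0.248%. Desert regions with a CTCF match were narrower (median 412 bp against 536 bp without) and had like signals in the main list (8.75 against 8.69). They were found in replicate 1's list in 70.5% (62.5 to 77.5%) of cases, against 81.0% (79.2 to 82.7%) of those without a match. In replicate 2's list the shares were 37.4% (29.8 to 45.7%) and 58.0% (55.7 to 60.2%). In nearer intergenic regions the shares in replicate 2's list were 38.9% and 57.9%. In replicate 1's list they were 78.4% (75.5 to 81%) and 80.2% there, a smaller gap than in the deserts. Over all regions the shares with and without a CTCF match were 77.5% and 85.1% in replicate 1's list. In replicate 2's list they were 40.2% and 67%. Of the desert regions with a RUNX match, 61.3% (56.1 to 66.2%) were in replicate 2's list, against 55.6% (53.2 to 57.9%) of those without, intervals that overlapped. In nearer intergenic regions the RUNX shares were 62.8% and 54.9%, and over all regions 63.9% and 65.5%. In replicate 1's list they were 80.6% and 80.2% of desert regions. In 17 desert windows, or 0.843%, a CTCF match stood with a RUNX, ERG, PU.1 or GATA match, against 0.688% of all windows.

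The regions were unevenly spread over the deserts. Of 1720 intervals between neighbouring protein-coding genes that held eligible sequence, 765, or 44.5%, held a region. In 120 intervals there were 5 or more, and these held 836 regions, or 41.5% of the total. Of the 208 intervals with over 1 Mb of eligible sequence, 70 held none. The 3 longest empty ones were those between Tenm3 and Aga (4468 kb of eligible sequence), between Pcdh20 and Pcdh9 (4442 kb) and between Slc39a10 and Tmeff2 (3817 kb). Tenm3 (a teneurin), Pcdh9 and Pcdh20 (protocadherins) encode neuronal adhesion proteins. Density by chromosome ran from 1.95 regions per eligible Mb on chromosome 19 to 4.35 on chromosome 13.

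The interval with most regions without a flag lay between Id2 and Rnf144a. Id2 encodes an inhibitor of E-box binding proteins that acts in stem cells and lymphoid development. The interval, chr12:25097141-26300963, held 17 regions with signals from 2.01 to 10.6, of which 13 were found by replicate 1 and 8 by replicate 2. Regions chr12:25208870-25209395 and chr12:25209455-25209630 nearly adjoin, have the same replicate 1 signal of 9.16 and are counted separately. The latter had the signal of 2.01 and was in neither the IDR thresholded nor the pseudoreplicated list of replicate 2. All 17 lay on the upstream side of Id2, and 11 of them stood within 106.7 to 229 kb of its start. Intervals with more than 10 regions also lay beside other genes of blood cell regulation. There were 13 between Fam49a and Mycn (9 in both replicates' lists, signals 6.17 to 13.0), a paralogue of Myc. There were 12 between Gm11361 and Sox4 (7 in both), a transcription factor gene of lymphoid progenitors, with signals from 5.66 to 12.8. The 11 between Haao and Zfp36l2, whose product degrades mRNAs, stood in 141.1 kb of eligible sequence, a density of 77.9 per Mb. Another 11 lay between Bcl11a, a repressor of fetal globin genes, and 5730522E02Rik, and 11 between Pkn2 and Lmo4. The interval from Dusp6 (a phosphatase of ERK kinases) to Csl held 13 regions in 296.4 kb, and that from Ndfip2 to Spry2 (an inhibitor of receptor tyrosine kinase signalling) held 11. Intervals beside Gadd45g (15 regions, to Diras2), Ly86 (13 regions, to Rreb1) and Adgrl2 (16 regions, to Adgrl4) completed the intervals with the highest counts, apart from 2 antigen receptor loci. None of the regions in these intervals carried a flag. The named gene was often not the nearest one. Mycn was nearest to 4 of its 13 regions, Sox4 to 6 of 12 and Zfp36l2 to 4 of 11. Id2 was nearest to 14 of 17 and Bcl11a to 8 of 11. A neighbouring gene is a position, and the target of a region was not measured.

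Beside Myc, regions stood in 2 groups far apart. The interval from Myc to Gsdmc, which holds no protein-coding gene, held 10 regions, of which 4 lay 121.3 to 224.7 kb downstream of the Myc start and 6 lay 1616 to 1719 kb downstream, with none between. The far group, over chr15:63601622-63705428, is on the side and at the scale of the known blood enhancer cluster. Its highest region, chr15:63647927-63648699, had signal 12.6, with 12.4 in replicate 1 and 11.2 in replicate 2. The other 5 had signals from 8.61 to 10.1. In replicate 1's list 5 of the 6 were found, with signals from 9.45 to 12.4. Replicate 2's list held 3 of them, with signals from 6.19 to 11.2, and all 6 were in its pseudoreplicated list. The near group was weaker, with signals from 5.42 to 7.87, below all 6 of the far group. A further region lay 214.4 kb upstream of Myc, with signal 7.85. In the far group, PU.1 letters were in chr15:63616822-63617246 and chr15:63665192-63665870, and no RUNX letters were in the 6 windows.

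Other blood genes also had regions spread along the deserts beside them. Zeb2, a repressor needed in blood stem cell differentiation, had 10 regions in the desert up to Acvr2a. Of these, 6 lay 162.3 to 1408 kb upstream of Zeb2 and the other 4 at 3143 to 3504 kb, nearer to Acvr2a. The highest, chr2:46370792-46371446, had signal 13.0 (13.2 in replicate 1 and 8.33 in replicate 2) and carried the GATA and E-box composite. Beside Bcl11a, 4 regions from 107.1 to 165 kb downstream of its start were in both replicates' lists with signals from 9.37 to 12.5. Of these, 2 carried RUNX letters and the other 2 the HOXA9 and MEIS1 form. The rest of the 11 regions beside Bcl11a carried neither. In the interval between Fam49a and Mycn, 9 of 13 regions were in both lists, and 6 of the 13 carried RUNX letters. Mycn was the nearest gene of only 4 of the 13, at 118.9 to 312.8 kb. Among all desert regions, 51.7% were in both lists and 17.4% carried RUNX letters. Over the whole list the shares were 61.0% and 10.1%. The region of highest signal beside Foxo1, at chr3:52554879-52555526 and 286.9 kb downstream, had signal 15.1 with 14.3 in replicate 1 and 12.8 in replicate 2.

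**Figure D5:**
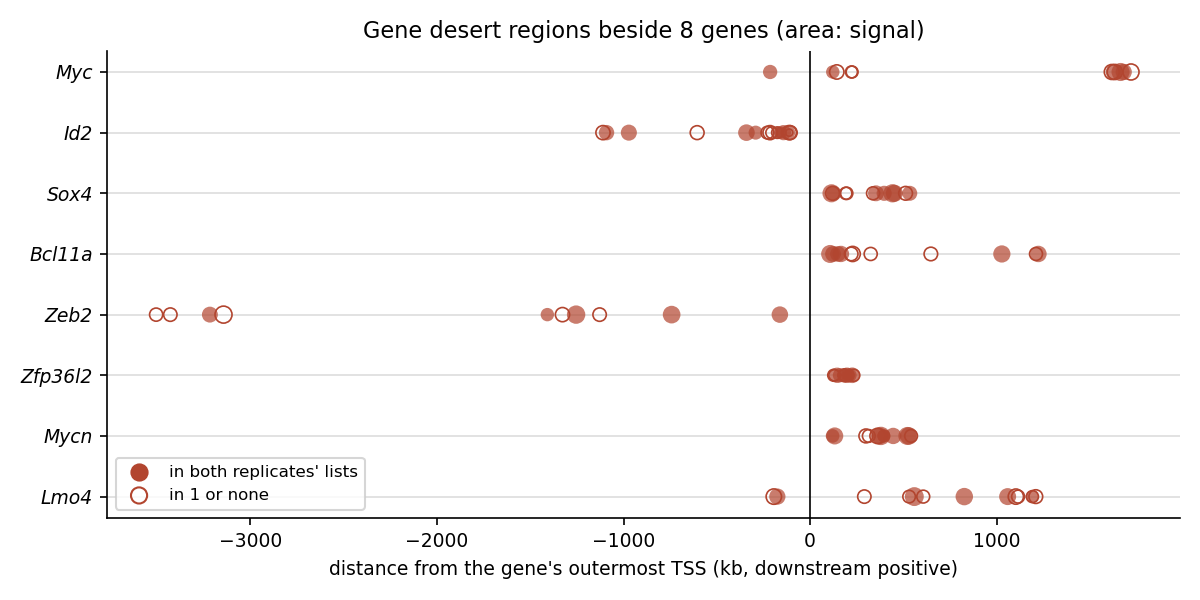
Position of gene desert regions relative to the outermost TSS of 8 genes (kb, positive downstream of the gene's start), with area proportional to signal. Filled points are in both replicates' IDR thresholded lists. The Myc row shows the group at 1616 to 1719 kb apart from that at 121.3 to 224.7 kb.

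Across a list of 50 blood regulator genes, 24 were the nearest gene of at least 1 desert region, or 48.0%, against 4.36% of all protein-coding genes (955 genes). They were nearest to 100 of the 2016 regions, or 4.96%, and to 1.14% of all regions in the main list. Id2 had 14, Bcl11a 8, and Ets1, Zeb2 and Sox4 6 each. Among genes that define stem and progenitor cells, Kit (the stem cell factor receptor) had 3 regions with signals from 6.96 to 11.4, 155.9 to 187.2 kb away. Meis1 had 3, from 6.73 to 9.29, and Runx1 had 2, at 5.51 and 11.3. Cd34 had 1 (signal 9.66) and Cxcr4, the chemokine receptor that retains cells in the marrow, had 4. Mecom, Hlf, Gata2, Erg, Fli1, Tal1, Lmo2, Flt3, Prdm16 and Hoxa9, which also act in stem and progenitor cells, were the nearest gene of no desert region. The regions nearest to Ets1 lay 205.1 to 787 kb from it. In a list of 32 developmental genes of other tissues, 11, or 34.4%, were nearest to a desert region, and to 25 regions in all, or 1.24%, against 0.174% of all regions. Sall3 had 6, and Sox9 and Sall1 had 4 each. An interval with a desert region was flanked by 52.0% of the blood genes and 56.2% of the developmental genes, against 6.32% of all genes. How far these shares follow the lengths of the intervals was not tested. Both gene lists were chosen with earlier results of these data known.

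Antigen receptor loci, where gene segments are not counted as protein-coding genes, fell under the rule. The T cell receptor alpha and delta locus, between Olfr1507 and Dad1, held 23 regions, the most of any interval. Of these, 21 were flagged as having near-identical copies, 14 were found by replicate 1, 10 by replicate 2 and 7 by both. Signals ran from 6.15 to 15.5. The immunoglobulin heavy chain locus on chromosome 12, between Adam6a and Zfp386, held 14 regions, of which 8 were flagged and 4 were in both lists. The loci on chromosome 13 (T cell receptor gamma) and chromosome 6 (immunoglobulin kappa and T cell receptor beta) held 5, 3 and 2, and the immunoglobulin lambda locus on chromosome 16 held none. Reads from near-identical segments cannot be placed with certainty, and how the authors placed them is not given in the sources used here.

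The 5 regions farthest from protein-coding genes lay 1633 to 2140 kb from a protein-coding TSS. The farthest, chr1:102628167-102628381 between Cntnap5b and Cdh20, had signal 10.7 (11.5 in replicate 1 and 8.09 in replicate 2) and 2 near-identical copies elsewhere. The others were the unflagged region 1805 kb from Cntnap5b described above, chr3:48080387-48081250 (signal 14.2) between Pabpc4l and Pcdh18, chr5:59996540-59997173 (signal 13.0) between Pcdh7 and G6pd2, and the mitochondrial match on chromosome 5, which lay in the same desert 1766 kb from G6pd2. All 5 were in both replicates' lists, which held 51.7% of desert regions and 61.0% of all regions. Of the 28 regions beyond 1000 kb, replicate 1's list held 24 (85.7%) and replicate 2's 15 (53.6%).

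Protein-coding genes are not the only genes in these deserts. Annotated genes of every other type are called noncoding here, pseudogenes and antigen receptor segments included. Of the 2016 summits, 457, or 22.7% (20.9 to 24.5%), lay inside such a gene, against 10.1% of all regions. The share was 14.8% in nearer intergenic regions and 5.23% inside protein-coding genes. Of the 457, 415 lay in a long noncoding RNA gene and 30 in a pseudogene. A noncoding TSS was within 1 kb of 196 desert summits, or 9.72% (8.50 to 11.1%), against 9.15% of all regions and 9.48% of nearer intergenic regions. Median signals of the regions with and without one were 8.78 and 8.68. CpG-rich windows, with at least 12 CpG in 201 bp, numbered 61, or 3.03% (2.36 to 3.87%), against 29.0% of all regions and 71.4% of promoters. Other distal classes were also low, with 7.70% in nearer intergenic regions and 4.46% inside protein-coding genes. Among unflagged regions, the CpG-rich one of highest signal was that beside Gm49326. Next was chr1:23255831-23256454 (signal 15.4, with 14.7 in replicate 1 and 13.3 in replicate 2), with 20 CpG and the noncoding gene Gm6420 starting 0.265 kb away.

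Most regions had no other desert region close by. With desert summits up to 12.5 kb apart joined, 1504 regions, or 74.6%, had no such neighbour, and 512 stood in 233 groups of 2 or more. Regions of other classes were not joined. The same share was not computed over all regions or for an even spread, so whether desert regions group more or less than others was not tested. Of these groups, 37 held 3 or more. The largest was the mitochondrial match on chromosome 4 with 5 regions. The next had 4 regions each and no flag, and lay beside Atp2b1, Id2, Rreb1, Usp6nl, Gm12830, Ccnd2 and Tgfbr2. At the edge of the rule, the 10 regions just over 100 kb (up to 100.7 kb) had signals from 4.3 to 12.5, with 5 in both replicates' lists. The 10 intergenic regions just under it (from 99.52 kb) had signals from 4.48 to 9.11, with 4 in both.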

How the data were processed

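Peak lists of 2 ATAC-seq libraries of haematopoietic stem cells were used. The authors deposited a signal with every peak, on mm10 per the deposited notes. Aligner, peak caller and any shift of reads to the cut site: not given in the sources used here. The conservative IDR thresholded list (53241 peaks) was merged into 31532 regions, each with the summit and signal of its highest peak. A region was in a replicate's list when it overlapped it by at least 1 base. Genes came from GENCODE M21 on GRCm38.p6 (21938 protein-coding genes), and sequences came from the GRCm38.p6 reference of RefSeq. Flags came from blastn 2.17.0, with 90% identity over 50% of the region, at an e-value of 1e-05 for mitochondrial DNA and 1e-10 for the nuclear genome (word size 50). With 1 group there was no test between conditions, so shares have 95% Wilson intervals. The counting code was tested on simulated regions. The members and lists were chosen with earlier results of these data known. Regions named were the 10 of highest signal without a flag, those matching mitochondrial DNA, the 5 farthest, the 10 intervals with most regions (13 with ties), the 3 longest empty ones, and genes of the 2 gene lists. Other regions and genes named, among them those of highest signal with copies or CpG, the largest groups and the antigen receptor loci, were chosen after their values were seen, as was the marker check. Some genes of that check are not reported here, for reasons unrelated to their values, so it is given without counts. Python 3.11.15 was used, with pandas 2.3.3.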

Additional observations from a re-analysis of the deposited data

How the results depend on the processing

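Of 66 results under alternatives, 29 stayed within the error or within 1.5 times the main value and 37 moved. The 2016 regions became 5987 in the replicated list and 7035 in the pseudoreplicated list of both replicates, and 1250 to 2290 with 1 replicate left out. They numbered 3664 over 50 kb, 903 over 200 kb, 174 over 500 kb and 1130 above the median signal. There were 216 when annotated genes of every other type, called noncoding here, also counted as genes. The share of 6.39% became 6.93% in the IDR thresholded list of both replicates, 7.88% and 8.11% in the replicated and pseudoreplicated lists, and 5.57 to 6.62% with 1 replicate left out. At other distances it was 11.6%, 2.86% and 0.552%, above the median signal 7.19%, with noncoding genes counted 0.685%, and with the TSS of every transcript of a protein-coding gene, an alternative added after seeing the data, 5.86%. The share in replicate 1's list was 77.6% over 500 kb, 83.8% with noncoding genes counted, 94.7% above the median signal, 78.2% at 50% overlap and 99.9% in the pseudoreplicated list. For replicate 2 it was 52.3% over 500 kb, 78.4% above the median signal, 53.3% at 50% overlap and 97.7% in the pseudoreplicated list. The mitochondrial share was 0.134% and 0.114% in the replicated and pseudoreplicated lists, 0.886% over 200 kb, 4.6% over 500 kb, 0% by construction without flagged regions, and 0.349 to 0.56% with 1 replicate left out. The CTCF share was 5.68% and 5.42% in the replicated and pseudoreplicated lists, 5.17% over 500 kb, 0.248% in flanking windows, and 4.0 to 6.03% with 1 replicate left out, lowest in replicate 2's list alone. Causes were not tested, other than lists and distances that hold more or fewer regions by construction. No paired analysis was possible because there is 1 group. A word size of 28 in the copy search flagged 94 regions in place of 86. Unknown depth limits what an absent peak means.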
